A study of Mus musculus with 14 samples.

Results

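Endothelial cells line every blood and lymphatic vessel, and the genes that mark them are used to read the vessel content of a tissue. The 32 genes described here were chosen by symbol. Their list holds endothelial junction proteins, receptors, secreted proteins, haemostasis genes, transcription factors and genes listed under capillaries or venules. Each symbol matched 1 Ensembl ID, so 32 of 33459 gene IDs in the deposited count table were members. The groups were FHL2-/- hearts (KO, n = 4, numbers 1 to 4), WT hearts (n = 4, numbers 1 to 4), FHL2-/- gonadal white adipose tissue (gWAT, KO, n = 3, numbers 1, 3 and 4) and WT gWAT (n = 3, numbers 1, 3 and 4). All mice, WT included, were C57BL/6, 21 weeks old and on a high-fat diet for 8 weeks, so no value here is from a mouse on another diet. Fhl2 encodes a LIM-domain adaptor found at the sarcomere and in the nucleus. The labels do not give the removed part of the gene or the sex, and it is not stated whether libraries are 1 per animal, so p-values measure the spread between these samples, which may be technical.

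Adherens and tight junctions hold endothelial cells together, with VE-cadherin (Cdh5) and claudin 5 (Cldn5) as their best known endothelial members. The ETS factors Erg, Fli1 and Ets1 and the SoxF factors Sox7, Sox17 and Sox18 maintain the endothelial programme. Heart and fat vessels both pass fatty acids from blood to the tissue, and Meox2 and Tcf15 are factors of the capillary endothelium of these organs. Venules carry Selp and Ackr1, which serve leukocyte traffic, and lymphatic endothelium is specified by Prox1.

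Libraries held 10835092 to 13272412 counts in heart and 15105019 to 16040188 counts in gWAT. Levels are given as CPM, reads scaled to library size after trimmed-mean (TMM) normalization over all 14 libraries. Differences are log2 ratios ± standard error (SE) from edgeR's quasi-likelihood test, fitted over all tested genes, with Benjamini-Hochberg adjusted p and a threshold of 0.05. Fhl2 was at 33.5 to 44.3 CPM in KO hearts and 1205 to 1632 CPM in WT hearts, and at 0.208 to 0.376 CPM in KO gWAT and 3.61 to 4.99 CPM in WT gWAT. The heart libraries differed in 5 atrial genes, whose summed level was 4748, 5202, 599.6 and 1043 CPM in KO hearts 1 to 4 and 4452, 3685, 105 and 145 CPM in WT hearts 1 to 4. Numbers 1 and 2 were thus high and numbers 3 and 4 low in both genotypes, and 7 mesothelial genes were likewise higher in numbers 1 and 2, with 200.4, 242, 53.6 and 105 CPM in KO hearts and 243, 309, 52.2 and 45.3 CPM in WT hearts. Tissue differences whose call or sign changed between hearts 1 and 2 alone and hearts 3 and 4 alone are given with both sets. In bulk tissue, fewer endothelial cells and less RNA per endothelial cell cannot be told apart.

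Most endothelial genes were higher in heart than in gWAT, in both genotypes, and a few were higher in gWAT. In KO mice 24 of the 32 genes were higher in heart and 5 were lower, beside 69.8% of all 15245 genes tested that passed in either direction (35% higher, 34.8% lower). In WT mice 24 were higher and 3 lower, beside 69.4% of all 15287 genes tested (33.3% higher, 36.1% lower). The median log2 difference of the members was 1.29 in KO and 1.21 in WT mice, against 0.01 and -0.03 over all genes tested. With library totals in place of TMM scaling the members' medians were 0.79 in KO and 0.63 in WT mice, and those of all genes -0.49 and -0.61. In both genotypes 22 members were higher in heart and 3 were lower in heart, 1 (Thbd) was called in opposite directions though not with library totals, Nos3, Fli1 and Selp passed in KO mice alone, Sox17 passed in WT mice alone, and Robo4 and Plvap passed in neither. Whether a member that passed in 1 genotype differed between genotypes is answered by the interaction test given further on.

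**Figure D1:**
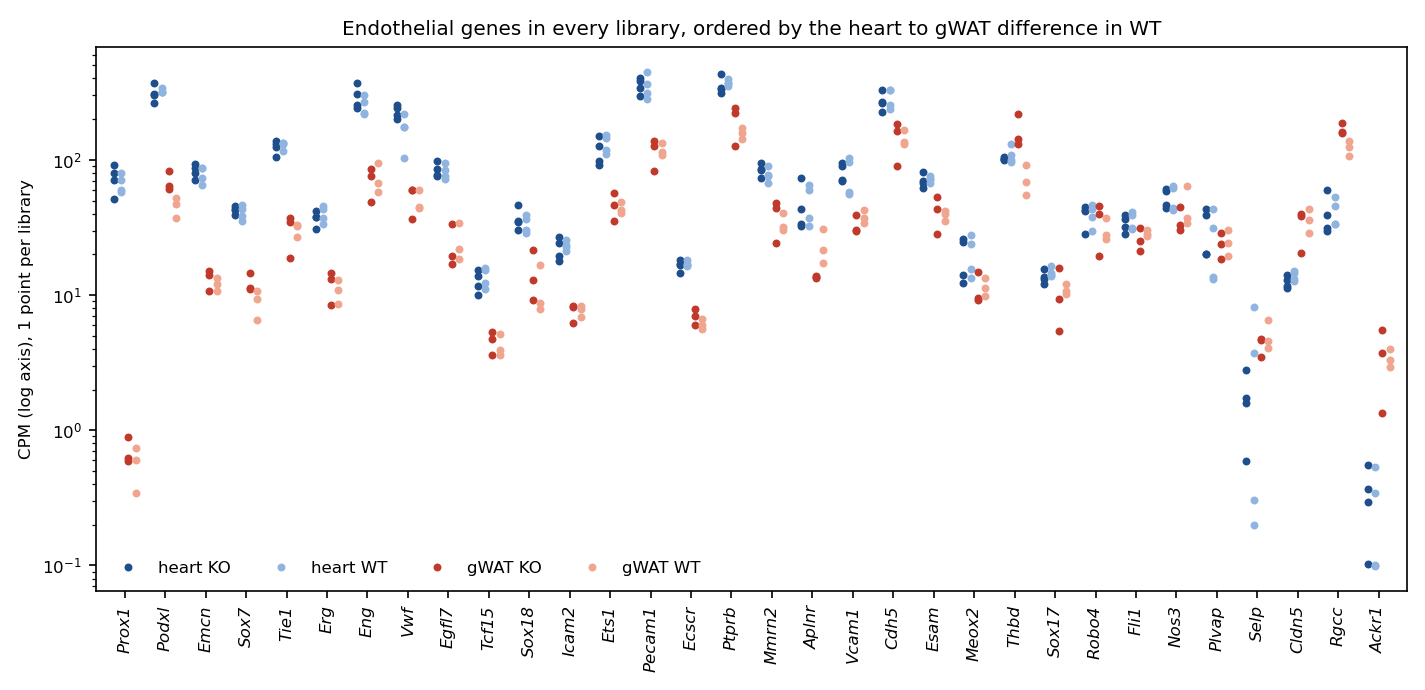
CPM of the 32 endothelial genes on a log axis, 1 point per library, for heart KO, heart WT, gWAT KO and gWAT WT, ordered by the tissue difference in WT mice. Prox1 at the left was at 51.6 to 91.5 CPM in KO hearts and under 1 CPM in every gWAT library, and Cldn5, Rgcc and Ackr1 at the right were higher in gWAT.

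Of the 7 junction and surface genes, 6 were higher in heart and 1 was lower in both genotypes. Podocalyxin (Podxl, ENSMUSG00000025608, chromosome 6, 31519488 to 31563981, GRCm38), a sialomucin of the endothelial surface that podocytes and mesothelium also make, was at 304, 262, 367 and 304 CPM in KO hearts against 64.5, 82.9 and 60.8 CPM in KO gWAT. In WT mice it was at 319, 319.8, 316 and 337 CPM in heart against 52, 46.8 and 37 CPM in gWAT. All heart libraries lay above all gWAT libraries, with log2 differences of 2.17 ± 0.15 in KO mice (adjusted p = 1.92e-07) and 2.84 ± 0.13 in WT mice (adjusted p = 1.73e-07). Endomucin (Emcn, ENSMUSG00000054690, chromosome 3, 137341067 to 137432185, GRCm38), a sialomucin of capillary and venous endothelium, held 93.8, 79.7, 86.9 and 71.1 CPM in KO hearts against 15.1, 10.7 and 14.2 CPM in KO gWAT. WT mice had 87.3, 87.4, 65.5 and 73.7 CPM of Emcn in heart against 13.5, 12.1 and 10.7 CPM in gWAT. The tissues did not overlap, and the log2 difference was 2.65 ± 0.14 in KO mice and 2.7 ± 0.14 in WT mice (adjusted p = 3.26e-08 and 3.59e-07). Pecam1, an adhesion molecule that platelets and leukocytes share, differed by 1.64 ± 0.18 in KO and 1.57 ± 0.17 in WT mice, and Icam2, another adhesion molecule of endothelium and blood cells, by 1.56 ± 0.17 and 1.6 ± 0.12. Cdh5 differed by 0.90 ± 0.22 in KO and 1.0 ± 0.15 in WT mice, and Esam, of endothelial tight junctions, by 0.78 ± 0.19 and 0.88 ± 0.09. With library totals Cdh5 was at 0.40 in KO (adjusted p = 0.105) and 0.41 in WT mice (adjusted p = 0.0274), and Esam at 0.28 (adjusted p = 0.199) and 0.30 (adjusted p = 0.0216), so both KO calls ended.

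Claudin 5 (Cldn5, ENSMUSG00000041378, chromosome 16, 18776847 to 18778262, GRCm38) went the other way from the other junction genes. Its level was 12.9, 11.6, 14.1 and 11.4 CPM in KO hearts against 40.05, 20.6 and 38.1 CPM in KO gWAT, and 14.6, 12.7, 15.1 and 13.2 CPM in WT hearts against 36.1, 43.4 and 29 CPM in WT gWAT. Every heart library lay below every gWAT library of its genotype, and the log2 difference was -1.38 ± 0.21 in KO mice (adjusted p = 1.25e-04) and -1.38 ± 0.15 in WT mice (adjusted p = 2.74e-05). Set against the median of 12 pan-endothelial members, Cldn5 was lower in heart by 2.58 on the log2 scale in KO mice and by 2.74 in WT mice. Those 12 genes, read as general endothelial markers, are Pecam1, Cdh5, Tie1, Emcn, Esam, Egfl7, Erg, Robo4, Mmrn2, Ecscr, Cldn5 and Ptprb. Their summed level was 1622, 1431, 1675 and 1391 CPM in KO hearts against 805, 454 and 819.9 CPM in KO gWAT, and 1618, 1493, 1542 and 1591 CPM in WT hearts against 626, 730.4 and 577 CPM in WT gWAT. Their median log2 difference between tissues was 1.20 in KO and 1.36 in WT mice.

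Of the 6 receptors and surface phosphatases, 5 were higher in heart in both genotypes and Robo4, an endothelial roundabout receptor, passed in neither. Tie1, a receptor tyrosine kinase that modulates Tie2 signalling, was at 131, 104, 137 and 123 CPM in KO hearts against 37.2, 18.9 and 34.9 CPM in KO gWAT, and at 130.2, 116, 133 and 134 CPM in WT hearts against 32.4, 32.8 and 26.7 CPM in WT gWAT. The tissues were fully apart, with log2 differences of 2.05 ± 0.21 in KO mice (adjusted p = 6.08e-06) and 2.07 ± 0.11 in WT mice (adjusted p = 3.13e-07). Endoglin (Eng), a co-receptor for BMP and TGF-beta ligands, was at 368, 306, 256 and 243 CPM in KO hearts against 86, 49.1 and 75.5 CPM in KO gWAT, and at 301, 269, 222 and 219 CPM in WT hearts against 58.2, 95.2 and 67.9 CPM in WT gWAT. No heart library reached down to the gWAT range, and the difference was 2.08 ± 0.20 in KO mice (adjusted p = 4.18e-06) and 1.78 ± 0.19 in WT mice (adjusted p = 3.36e-05). Ptprb, the phosphatase of Tie2 and VE-cadherin, differed by 0.86 ± 0.20 in KO and 1.24 ± 0.11 in WT mice, Ecscr by 1.26 ± 0.13 and 1.48 ± 0.12, and the apelin receptor Aplnr by 1.77 ± 0.26 and 1.08 ± 0.28. With library totals Ptprb in KO mice (0.36, adjusted p = 0.122) and Aplnr in WT mice (0.49, adjusted p = 0.0862) did not pass. The WT difference of Aplnr was 0.58 with hearts 1 and 2 alone (adjusted p = 0.0587) and 1.46 with hearts 3 and 4 alone (adjusted p = 0.00107), and the KO difference was 1.29 and 2.13. Robo4 differed by 0.19 ± 0.25 in KO and 0.38 ± 0.18 in WT mice, and by -0.32 and -0.21 with library totals. Both secreted matrix proteins were higher in heart, Egfl7 by 1.86 ± 0.21 in KO and 1.72 ± 0.21 in WT mice and Mmrn2 by 1.14 ± 0.20 and 1.19 ± 0.14. Eng and Egfl7 share exon bases with Fpgs and Agpat2 on the opposite strand, and Egfl7 also with Gm20532 on its own strand, and their values are uncertain, since no source used here gives the strandedness used for counting.

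The haemostasis genes were less alike. Von Willebrand factor (Vwf, ENSMUSG00000001930, chromosome 6, 125546774 to 125686679, GRCm38), the platelet-tethering protein of endothelium, was at 244, 256, 214 and 199.6 CPM in KO hearts against 59.3, 36.8 and 59.5 CPM in KO gWAT, a log2 difference of 2.15 ± 0.17 (adjusted p = 7.74e-07). In WT mice its level was 217, 174, 103 and 175 CPM in heart against 44.2, 59.4 and 44.9 CPM in gWAT, a difference of 1.76 ± 0.24 (adjusted p = 1.44e-04), and neither genotype showed overlap between tissues. Nos3, the endothelial nitric oxide synthase, overlapped between tissues in both genotypes and differed by 0.57 ± 0.16 in KO mice, which passed, and by 0.25 ± 0.24 in WT mice, which did not. With library totals Nos3 was at 0.08 in KO (adjusted p = 0.697) and -0.30 in WT mice (adjusted p = 0.282). Nos3 shares exon bases with Atg9b on the opposite strand and is uncertain for the same reason. Thrombomodulin (Thbd), the cofactor that turns thrombin towards protein C, was lower in heart in KO mice (-0.68 ± 0.15, adjusted p = 0.00232) and higher in heart in WT mice (0.60 ± 0.18, adjusted p = 0.0139). With library totals its WT difference was 0.05 (adjusted p = 0.826) and its KO difference -1.18. The WT difference also did not pass without WT gWAT number 4 (0.56, adjusted p = 0.0540) or with hearts 3 and 4 alone (0.46 against 0.73 with hearts 1 and 2, adjusted p = 0.0764 and 0.0185), and its libraries are given with the knockout effect.

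All 9 transcription factors had positive differences in both genotypes, except that Fli1 and Sox17 were negative with library totals, and 8 passed in each. Prox1 (ENSMUSG00000010175, chromosome 1, 190118035 to 190170714, GRCm38), the lymphatic factor that cardiomyocytes also make, had the widest gap of any member. It was at 51.6, 71.3, 91.5 and 79.5 CPM in KO hearts against 0.591, 0.624 and 0.885 CPM in KO gWAT, and at 59.5, 58.2, 80.2 and 70.8 CPM in WT hearts against 0.745, 0.598 and 0.341 CPM in WT gWAT. The log2 difference was 6.71 ± 0.26 in KO mice (adjusted p = 2.64e-09) and 6.9 ± 0.24 in WT mice (adjusted p = 2.77e-08). Lyve1, a hyaluronan receptor of lymphatic endothelium and some macrophages, was far less apart, at 44.5 to 75.4 CPM in KO hearts and 54.2 to 68.1 CPM in KO gWAT, and at 36.1 to 95.9 CPM in WT hearts and 29.9 to 47.9 CPM in WT gWAT. The part of cardiomyocytes in the heart Prox1 reads was not tested. Among the SoxF factors, Sox7 was at 45.5, 42.6, 43.3 and 39.1 CPM in KO hearts against 14.4, 11.1 and 11.2 CPM in KO gWAT, and at 35.2, 43.2, 46 and 38.2 CPM in WT hearts against 10.7, 9.32 and 6.53 CPM in WT gWAT. These ranges did not overlap, and Sox7 differed by 1.81 ± 0.12 in KO mice (adjusted p = 1.33e-07) and 2.21 ± 0.18 in WT mice (adjusted p = 4.91e-06). Sox18 differed by 1.35 ± 0.25 in KO and 1.61 ± 0.26 in WT mice.

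Sox17, the arterial SoxF factor, differed little between tissues, at 15.6, 13.2, 13.6 and 12.1 CPM in KO hearts against 15.9, 5.41 and 9.27 CPM in KO gWAT, and at 14.5, 14, 13.9 and 16.3 CPM in WT hearts against 10.7, 12.2 and 10.1 CPM in WT gWAT. The ranges overlapped in KO mice (0.44 ± 0.29, adjusted p = 0.197) and not in WT mice (0.42 ± 0.12, adjusted p = 0.0114), and with library totals the difference turned to -0.06 in KO (adjusted p = 0.858) and -0.17 in WT mice (adjusted p = 0.287). The WT difference also did not pass without WT gWAT number 4 (0.35, adjusted p = 0.0585), with hearts 1 and 2 alone (0.36, adjusted p = 0.077) or in 1 fit of all 14 libraries (0.41, adjusted p = 0.139). The ETS factors Erg and Ets1 were higher in heart, Erg by 1.65 ± 0.18 in KO and 1.89 ± 0.17 in WT mice and Ets1 by 1.35 ± 0.20 and 1.59 ± 0.14. Fli1, an ETS factor that leukocytes and megakaryocytes share, differed by 0.41 ± 0.15 in KO mice, which passed, and by 0.32 ± 0.13 in WT mice (adjusted p = 0.0506), and the values turned to -0.09 and -0.28 with library totals (adjusted p = 0.598 and 0.067). The KO call of Fli1 also ended without KO heart 1 or 3, without KO gWAT 1 or 3 and with no low-count filter (adjusted p 0.0709 to 0.141), and the WT difference passed without WT heart 1 or 2, with RLE scaling and with DESeq2 (adjusted p 0.0333 to 0.0444). The capillary factors Tcf15 and Meox2 differed by 1.5 ± 0.19 and 0.81 ± 0.28 in KO mice and by 1.68 ± 0.19 and 0.80 ± 0.25 in WT mice. With hearts 1 and 2 alone Meox2 no longer passed, at 0.25 in KO (adjusted p = 0.359) and 0.31 in WT mice (adjusted p = 0.163), and with hearts 3 and 4 alone it was 1.21 and 1.18. Meox2 also did not pass with library totals, at 0.29 in KO (adjusted p = 0.319) and 0.20 in WT mice (adjusted p = 0.446). Nor did it pass in KO mice without KO heart 3 or 4 or KO gWAT 1 or 3 (adjusted p 0.0648 to 0.0867), or in WT mice without WT heart 4 or WT gWAT 4 (adjusted p = 0.0516 and 0.0709). Sox17 and Prox1 share exon bases with Gm37587 and Prox1os on the opposite strand, so their counts are uncertain too. The same holds for Ecscr (1700066B19Rik), Selp (Gm16587 and Gm16548) and Vcam1 (Gm43109).

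**Figure D2:**
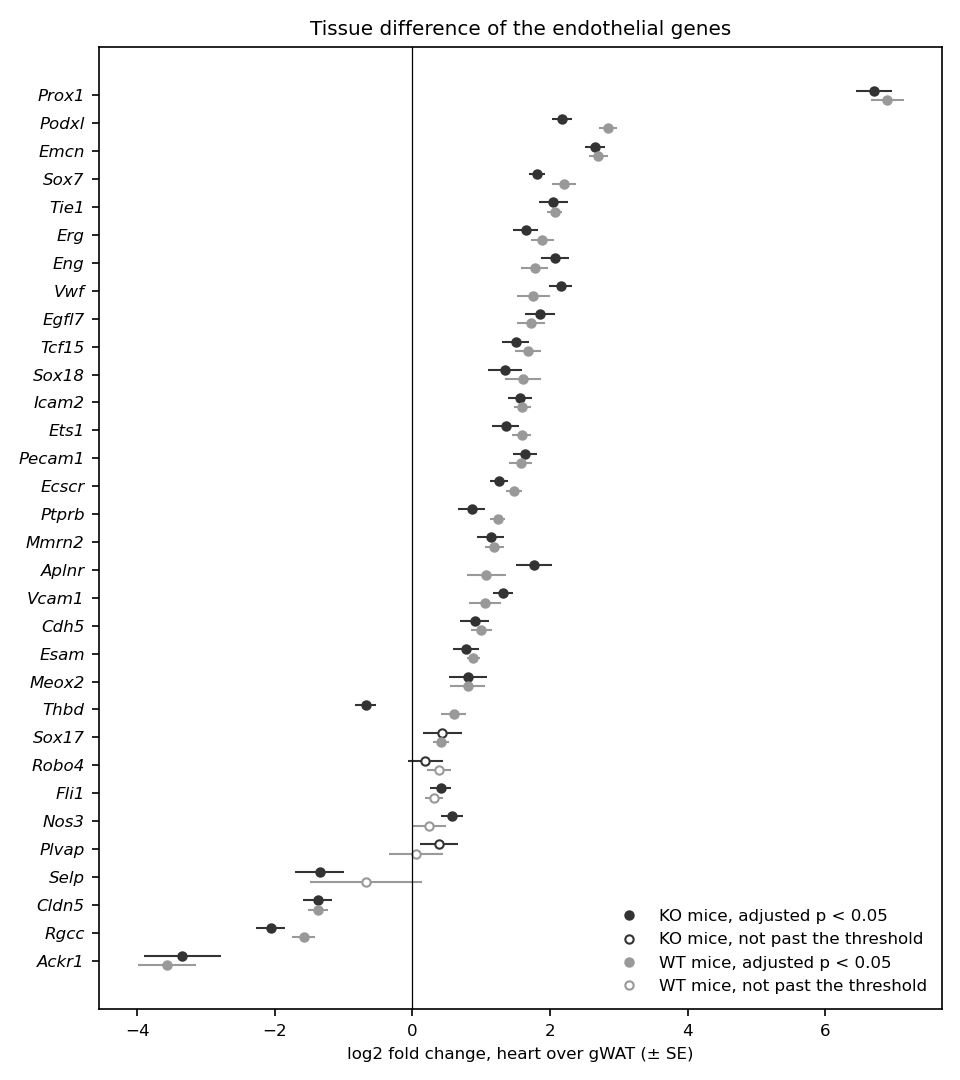
Log2 difference of heart over gWAT for each endothelial gene, with its SE, in KO mice (black, upper point) and WT mice (grey, lower point). Filled points passed an adjusted p of 0.05, and Rgcc, Cldn5 and Ackr1 lie left of 0 in both genotypes while Thbd lies left of 0 in KO and right of it in WT mice.

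Rgcc and Ackr1, listed under capillaries and venules, were lower in heart in both genotypes. The part of other cell types in the Rgcc reads was not tested. Rgcc (ENSMUSG00000022018, chromosome 14, 79288756 to 79301645, GRCm38), a cell cycle regulator found in capillary endothelium, was at 59.4, 29.6, 31.4 and 39.2 CPM in KO hearts against 188, 161 and 158 CPM in KO gWAT, and at 45.5, 33.7, 33.3 and 52.7 CPM in WT hearts against 139, 107 and 125 CPM in WT gWAT. Each heart library was below each gWAT library, and the log2 difference was -2.06 ± 0.21 in KO mice (adjusted p = 4.81e-06) and -1.58 ± 0.17 in WT mice (adjusted p = 3.28e-05). Ackr1 (ENSMUSG00000037872, chromosome 1, 173331886 to 173333750, GRCm38), the chemokine-scavenging receptor of venules, rested on few reads, 14 in all KO hearts against 201 in KO gWAT and 12 in all WT hearts against 199 in WT gWAT. Its difference was -3.34 ± 0.57 in KO mice (adjusted p = 3.04e-04) and -3.57 ± 0.42 in WT mice (adjusted p = 5.91e-05), and it shares 284 exon bases with Cadm3 on the same strand, so its count is uncertain. Vcam1, an adhesion molecule induced by cytokines, was higher in heart by 1.32 ± 0.14 in KO and 1.05 ± 0.24 in WT mice. The WT difference of Vcam1 was 1.39 with hearts 1 and 2 alone, 0.60 with hearts 3 and 4 alone and 0.50 with library totals, where it did not pass (adjusted p = 0.112).

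Plvap is the diaphragm protein of fenestrae and caveolae, and Selp is P-selectin of venules and platelets. In heart both were higher in numbers 1 and 2 than in numbers 3 and 4, as were the atrial and the mesothelial genes. Selp rested on few heart reads, 69 in all KO and 140 in all WT hearts. Plvap was at 43.2, 39.1, 20.05 and 20.3 CPM in KO hearts against 28.9, 18.6 and 23.7 CPM in KO gWAT, and at 43.2, 31.4, 13.5 and 13.2 CPM in WT hearts against 19.5, 30.1 and 24.2 CPM in WT gWAT. Hearts 1 and 2 were above hearts 3 and 4 in both genotypes. Over all hearts Plvap differed by 0.38 ± 0.27 in KO (adjusted p = 0.227) and 0.05 ± 0.40 in WT mice (adjusted p = 0.916), and by -0.10 and -0.51 with library totals. In WT mice the Plvap difference was 0.58 with hearts 1 and 2 alone (adjusted p = 0.0556) and -0.86 with hearts 3 and 4 alone (adjusted p = 0.00995), so its direction rests on which hearts are used. In KO mice it was 0.81 with hearts 1 and 2 (adjusted p = 0.00361) and -0.20 with hearts 3 and 4 (adjusted p = 0.345). Selp was at 1.73, 2.78, 1.58 and 0.593 CPM in KO hearts against 4.72, 3.48 and 4.69 CPM in KO gWAT, and at 3.7, 8.22, 0.305 and 0.198 CPM in WT hearts against 4.07, 6.53 and 4.58 CPM in WT gWAT. It was lower in heart in KO mice (-1.35 ± 0.35, adjusted p = 0.00548), a call that ended in 1 fit of all 14 libraries (-1.36, adjusted p = 0.111), and it did not pass in WT mice (-0.67 ± 0.81, adjusted p = 0.479), while WT heart 1 lay just below and WT heart 2 above the gWAT range and WT hearts 3 and 4 far below it. The WT difference of Selp was 0.21 with hearts 1 and 2 alone (adjusted p = 0.645) and -4.27 with hearts 3 and 4 alone (adjusted p = 0.000250). In KO mice it was -0.93 with hearts 1 and 2 alone (adjusted p = 0.0258) and -1.94 with hearts 3 and 4 alone (adjusted p = 0.00234). Calls of 4 further members changed with the hearts used. With hearts 1 and 2 alone, Fli1 in KO mice (0.33, adjusted p = 0.145) and Sox17 in WT mice (0.36, adjusted p = 0.0770) no longer passed. With hearts 3 and 4 alone these were at 0.49 (adjusted p = 0.0303) and 0.48 (adjusted p = 0.0327). With hearts 3 and 4 alone, Nos3 in KO mice no longer passed (0.37, adjusted p = 0.0747), against 0.76 with hearts 1 and 2 (adjusted p = 0.00358). Its WT value was -0.03 with hearts 3 and 4 against 0.48 with hearts 1 and 2. Robo4 (0.60, adjusted p = 0.0195) and Fli1 (0.51, adjusted p = 0.00660) passed in WT mice with hearts 3 and 4. With hearts 1 and 2 these were at 0.14 (adjusted p = 0.547) and 0.098 (adjusted p = 0.497). Leaving out 1 library brought Sox17 past the threshold in KO mice (0.89 without KO gWAT 1, adjusted p = 0.00486), and in WT mice Nos3 (0.58 without WT gWAT 1, adjusted p = 0.0193) and Robo4 (0.50 without WT heart 2 and 0.55 without WT gWAT 3). The part of atrial tissue or mesothelium in these differences was not tested.

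Set per kilobase of exon length, so that genes can be compared with each other, the order of the members differed between tissues. In WT hearts Cdh5 (68.6 CPM per kb), Eng (62.5), Podxl (58.8), Pecam1 (56.4) and Rgcc (45) were at the top. In WT gWAT the top level was that of Rgcc (135 CPM per kb), followed by Cdh5 (34.3), Cldn5 (25.5), Thbd (19.4) and Pecam1 (19). Cldn5 thus ranked 24 of 32 in WT heart and 3 of 32 in WT gWAT, and Emcn ranked 14 in WT heart and 30 in WT gWAT. These levels are group means, and no test of the order was run.

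Promoters of 12 members were taken from a RefSeq table of mouse build GRCm38.p6, which may hold entries of other members. The counts for members cover these 12 alone. Of these promoters, 4 are shown because they belong to genes on opposite sides of the tissue difference. Each is the 250 bases before the transcription start that this table gives, read 5′ to 3′ on the gene's strand. That start can lie inside the GENCODE M21 gene whose coordinates are used elsewhere in this text. The M21 genes Tie1 (up to 118490061), Emcn (from 137341067) and Rgcc (up to 79301645) reach into their windows, and Cldn5 (from 18776847) does not. Capitals mark AGGAA or its reverse complement TTCCT, the core bound by ETS factors such as the members Erg, Fli1 and Ets1, and ACAAT or its reverse complement ATTGT, a core of Sox factors. Tie1 (chr4:118489850-118490099, minus strand) and Emcn (chr3:137340828-137341077, plus strand) were higher in heart, and Cldn5 (chr16:18776597-18776846, plus strand) and Rgcc (chr14:79301636-79301885, minus strand) were higher in gWAT.
Tie1: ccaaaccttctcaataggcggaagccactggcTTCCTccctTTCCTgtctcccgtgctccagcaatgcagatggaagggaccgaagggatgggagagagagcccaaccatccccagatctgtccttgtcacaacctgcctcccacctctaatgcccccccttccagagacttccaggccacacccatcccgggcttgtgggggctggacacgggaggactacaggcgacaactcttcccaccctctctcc
Emcn: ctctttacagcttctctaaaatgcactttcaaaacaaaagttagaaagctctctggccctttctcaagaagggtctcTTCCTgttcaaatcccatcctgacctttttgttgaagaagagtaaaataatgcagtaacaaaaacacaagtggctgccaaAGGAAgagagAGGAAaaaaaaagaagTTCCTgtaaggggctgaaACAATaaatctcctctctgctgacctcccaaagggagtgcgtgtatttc
Cldn5: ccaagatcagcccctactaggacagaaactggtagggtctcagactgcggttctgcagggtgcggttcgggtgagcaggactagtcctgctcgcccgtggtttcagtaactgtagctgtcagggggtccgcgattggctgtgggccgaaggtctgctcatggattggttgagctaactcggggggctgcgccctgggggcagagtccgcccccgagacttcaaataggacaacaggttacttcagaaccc
Rgcc: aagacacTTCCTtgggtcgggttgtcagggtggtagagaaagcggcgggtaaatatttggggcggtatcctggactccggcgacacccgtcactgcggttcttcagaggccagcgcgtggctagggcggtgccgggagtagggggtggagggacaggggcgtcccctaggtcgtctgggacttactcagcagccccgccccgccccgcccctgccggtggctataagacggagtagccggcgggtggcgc
Tie1 held 2 ETS-type matches, Emcn 4 ETS-type and 1 Sox-type, Rgcc 1 ETS-type and Cldn5 0 of either. Among promoters not shown, that of Ackr1, lower in heart, held 4 ETS-type matches. Those of Eng and Meox2, higher in heart, held 2 and 0. Whether the matches differed between genes higher and lower in heart was not tested. Over the 17 promoter entries of the 12 members, 13 held an ETS-type match and 3 a Sox-type match. No ETS-type match overlapped a Sox-type match, but neighbouring ETS-type matches shared a base in an Egfl7 entry. Among all 32851 promoters of that table, 60.3% held the ETS-type letters and 27.7% the Sox-type letters in the same 250 bases. A match is a run of letters and not a shown binding site, and a promoter with 0 matches lacks only these letters in this window.

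In gWAT, thrombomodulin was higher in KO than in WT mice, and it was the 1 of the 32 endothelial genes that passed the test. Over all 15200 genes tested, 5.49% passed (2.01% higher, 3.48% lower). The members' median log2 fold change of KO over WT was 0.05 against 0.00 over all genes, with 18 positive and 14 negative values between -0.76 and 1.20. The 12 pan-endothelial genes summed to 805, 454 and 819.9 CPM in KO gWAT 1, 3 and 4 and to 626, 730.4 and 577 CPM in WT gWAT 1, 3 and 4. KO library 3 was the lowest and the 2 other KO libraries the highest of the 6, so the groups overlapped. None of the 12 passed in edgeR's test, 0 had an unadjusted p under 0.05, and their median log2 fold change was 0.11.

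Thbd (ENSMUSG00000074743, chromosome 2, 148404466 to 148408188, GRCm38) was at 132, 219.7 and 143 CPM in KO gWAT 1, 3 and 4, against 92.1, 55.2 and 69.1 CPM in WT gWAT 1, 3 and 4. Every KO library lay above every WT library, with the highest level in KO 3 and the lowest in WT 3. The log2 fold change was 1.2 ± 0.23 (adjusted p = 0.0315, higher in 3 of 3 KO libraries). The call was lost in 6 of 13 alternatives, with adjusted p between 0.0711 and 0.145 when WT 3, WT 4, KO 1, KO 3 or KO 4 was left out or the replicate number was a block, and the log2 fold change was 0.93 to 1.34 there. Without KO 1, KO 3, KO 4 or WT 4, or with the block, edgeR's test called 0 of all genes in gWAT, without WT 3 it called 132, and without WT 1 it called 2908.

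Mesothelial cells cover gonadal fat and also make thrombomodulin and podocalyxin, and their markers were higher in the same libraries. The 7 mesothelial genes, none at 0 in any library, summed to 374, 468 and 276 CPM in KO gWAT 1, 3 and 4 and to 225, 102 and 187 CPM in WT gWAT 1, 3 and 4. KO 3 was highest and WT 3 lowest, as for Thbd. All 7 had positive log2 fold changes with a median of 1.12, and 3 passed, Krt19 (1.28 ± 0.22, adjusted p = 0.0268), Krt8 (1.15 ± 0.24, adjusted p = 0.0368) and Msln (1.05 ± 0.24, adjusted p = 0.0457). The part of mesothelium in the Thbd result was not tested.

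**Figure D3:**
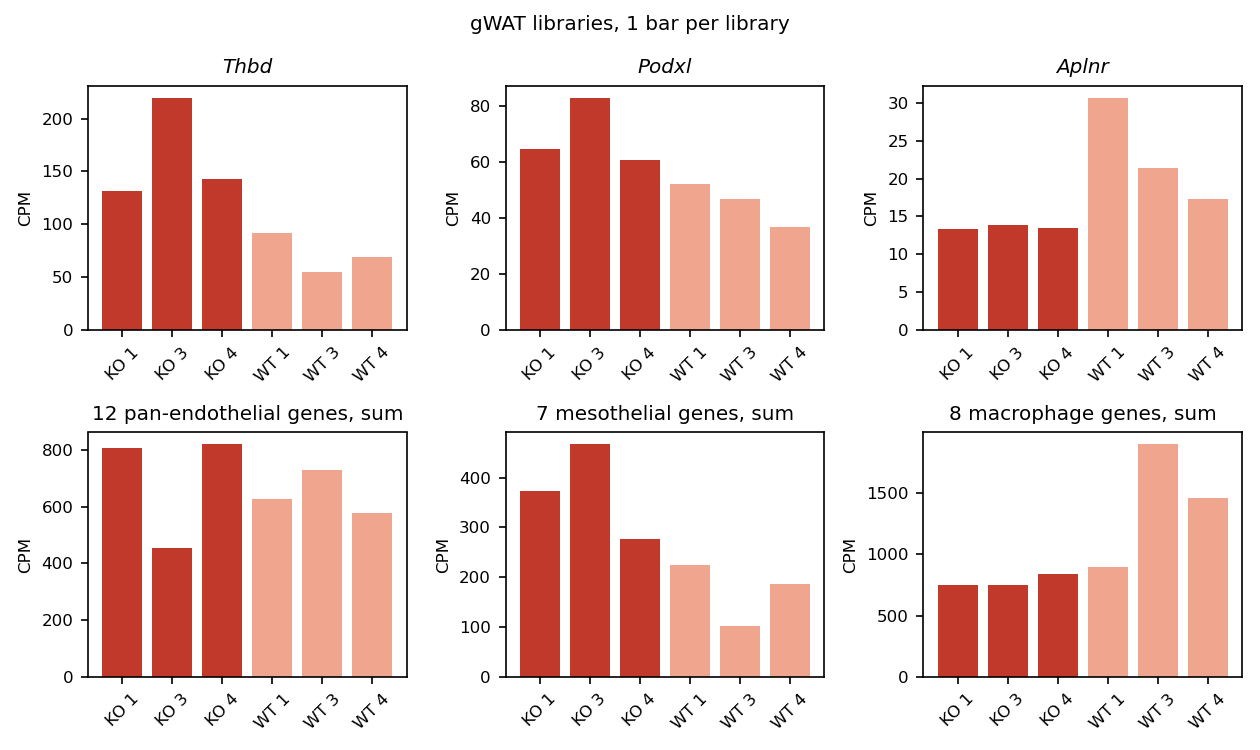
CPM in each gWAT library, 3 KO bars left of 3 WT bars, for Thbd, Podxl, Aplnr and the sums of 12 pan-endothelial, 7 mesothelial and 8 macrophage genes. KO 3 was highest in Thbd, Podxl and the mesothelial sum and lowest in the pan-endothelial sum.

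Of the other members, Aplnr and Podxl had the smallest p in gWAT, and neither passed. Aplnr (ENSMUSG00000044338, chromosome 2, 85136225 to 85139923, GRCm38), the apelin receptor of sprouting and venous endothelium, was at 13.3, 13.9 and 13.5 CPM in KO gWAT against 30.7, 21.4 and 17.4 CPM in WT gWAT. The KO libraries were tightly grouped below all WT libraries, and the log2 fold change was -0.76 ± 0.19 (adjusted p = 0.0558). Podxl was at 64.5, 82.9 and 60.8 CPM in KO gWAT against 52, 46.8 and 37 CPM in WT gWAT, again with KO 3 highest and no overlap, and a log2 fold change of 0.62 ± 0.16 (adjusted p = 0.0615). Aplnr passed in 4 of 13 alternatives and Podxl in 3 of 13, so both lie close to the threshold. Rgcc (188, 161 and 158 CPM in KO gWAT against 139, 107 and 125 CPM in WT gWAT) and Sox7 (14.4, 11.1 and 11.2 CPM in KO gWAT against 10.7, 9.32 and 6.53 CPM in WT gWAT) also had groups that did not overlap, with log2 fold changes of 0.45 ± 0.12 and 0.48 ± 0.20 that did not pass (adjusted p = 0.0736 and 0.193). How many of all genes had groups without overlap was not counted in any comparison, so non-overlap of a member has no background here. An unadjusted p under 0.05 in edgeR's test was found for 5 of the 32 members, a smaller share than the 23.1% of all genes. The 27 members with an unadjusted p of 0.05 or more ranged from -0.32 (Nos3) to 0.39 (Sox18).

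By role, the gWAT medians of KO over WT were 0.02 for the 7 junction genes, 0.09 for the 6 receptors, 0.04 for the 2 secreted proteins, 0.06 for the 3 haemostasis genes, 0.10 for the 9 factors, 0.19 for the 2 capillary genes and -0.20 for the 3 venular genes. Thbd was the 1 gene called among them. Vessel-related genes outside the 32 were counted by list. Of 14 VEGF and angiopoietin genes, Vegfa, the main growth factor of blood vessels and made by adipocytes and other cells, rose to 140.2, 164 and 215 CPM in KO gWAT, against 108, 84.5 and 82 CPM in WT gWAT (0.92 ± 0.17, adjusted p = 0.0299). The groups did not overlap, and the receptors Kdr (0.34 ± 0.19) and Flt1 (0.17 ± 0.23) did not pass (adjusted p = 0.326 and 0.71). Of 5 lymphatic genes tested, Prox1 among them, Lyve1 (0.77 ± 0.17, adjusted p = 0.045) and Reln (1.41 ± 0.31, adjusted p = 0.0408) were higher in KO gWAT, and Prox1 was at 0.33 ± 0.39 and did not pass (adjusted p = 0.659). Of 10 genes of capillary lipid handling, Timp4 was higher (1.15 ± 0.19, adjusted p = 0.0258) and Fabp5, a fatty acid binding protein that macrophages also make, was lower (-0.90 ± 0.13, adjusted p = 0.0216). None of 13 arterial and Notch genes, 7 venous genes, 11 genes of BMP and shear signalling or 10 mural cell genes passed in edgeR's test, and by an unadjusted p under 0.05 these counts were 0, 1, 2 and 1.

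Macrophage and cell division genes moved in gWAT as well. The 8 macrophage genes summed to 748, 748 and 841 CPM in KO gWAT and 897, 1902 and 1463 CPM in WT gWAT, with all 8 log2 fold changes negative and 3 that passed. All 6 genes of cell division were lower in KO gWAT (median -1.80). Pecam1, Icam2, Fli1, Ets1 and Vcam1, which leukocytes also make, were at -0.04, -0.02, -0.15, 0.08 and -0.20 in KO over WT gWAT, and none passed. How much of their level came from leukocytes was not tested.

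**Figure D4:**
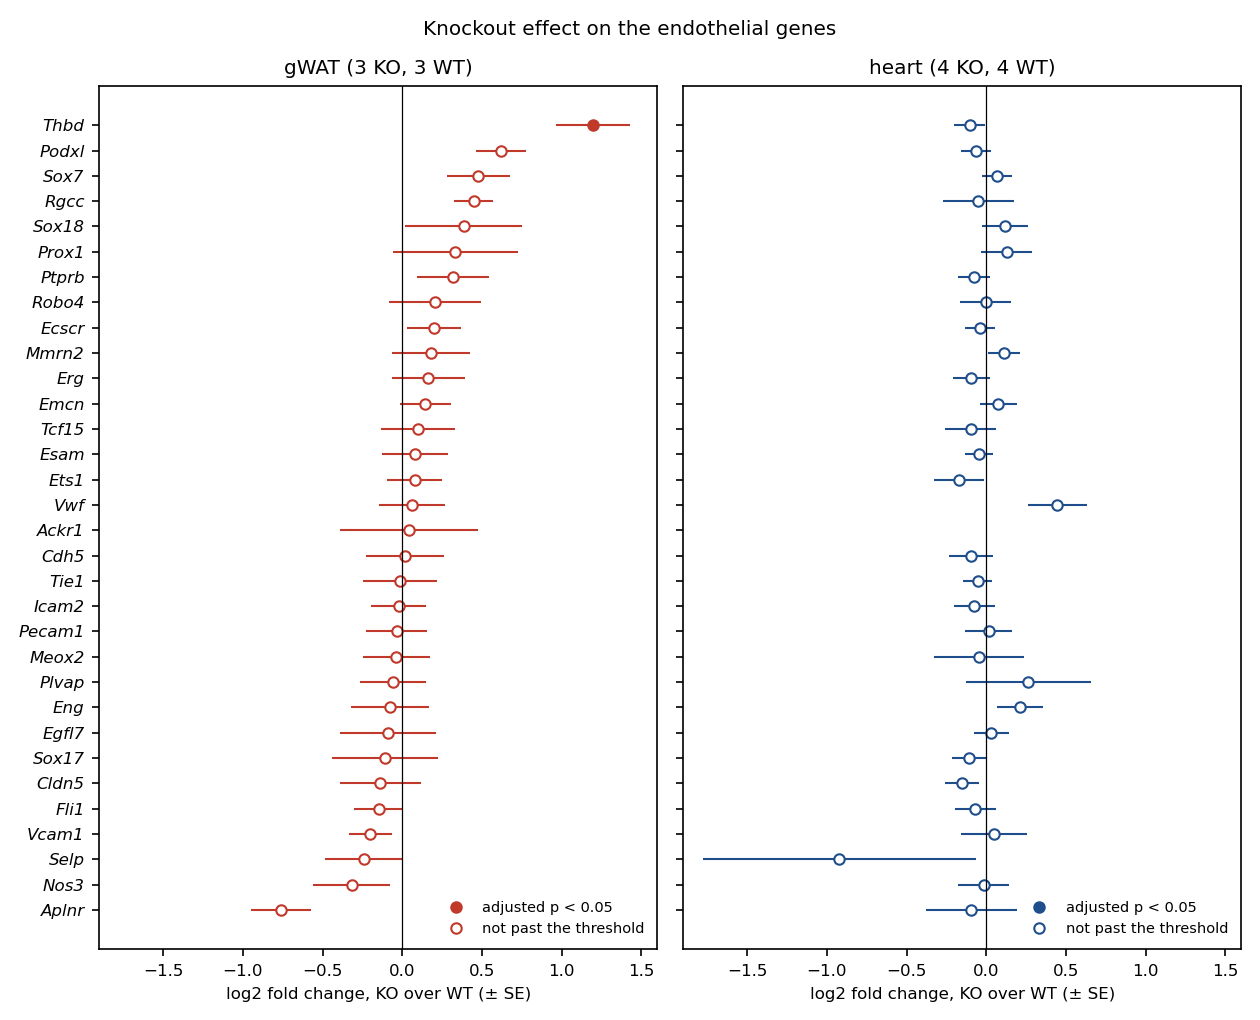
Log2 fold change of KO over WT with its SE for each endothelial gene, in gWAT (left, 3 KO and 3 WT) and in heart (right, 4 KO and 4 WT). Thbd in gWAT, at 1.20, is the filled point that passed, and Ackr1 has no heart value because it was filtered out.

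In heart, none of the 31 endothelial genes that passed the count filter differed between KO and WT at the threshold in edgeR's test, DESeq2 also called 0, and 1 had an unadjusted p under 0.05. Over all 14159 genes tested in heart, 0.00706% passed (1 gene, Fhl2 itself), and 3.2% (453) had an unadjusted p under 0.05. Ackr1 was left out by the filter, at 0.103 to 0.557 CPM in KO and 0.0991 to 0.536 CPM in WT hearts. The members' median log2 fold change was -0.05 against 0.00 over all genes, with 11 positive and 20 negative. The values lay between -0.92 (Selp, which rested on few heart reads) and 0.45 (Vwf). With hearts 1 and 2 alone Selp was at -1.40 (adjusted p = 0.671 in edgeR's test). The pan-endothelial sum was 1622, 1431, 1675 and 1391 CPM in KO hearts 1 to 4 and 1618, 1493, 1542 and 1591 CPM in WT hearts 1 to 4, and the groups overlapped. On simulated data of the heart libraries, 91% of 2-fold changes were called. The simulation gave all genes the same spread and held no split of hearts 1 and 2 from hearts 3 and 4. The share for genes that follow this split is therefore not known.

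Vwf had the smallest p of the heart members. It was at 244, 256, 214 and 199.6 CPM in KO hearts 1 to 4 and at 217, 174, 103 and 175 CPM in WT hearts 1 to 4. KO hearts 1 and 2 lay above every WT heart, KO hearts 3 and 4 lay below WT 1 alone, and WT 3 was the lowest of all. The log2 fold change was 0.45 ± 0.19 (adjusted p = 0.9997 in edgeR's test), and Vwf was the 1 member with an unadjusted p under 0.05. With hearts 1 and 2 alone it was 0.35 (adjusted p = 0.738) and with hearts 3 and 4 alone 0.57 (adjusted p = 0.623). Eng, at 368, 306, 256 and 243 CPM in KO hearts and 301, 269, 222 and 219 CPM in WT hearts, had a log2 fold change of 0.21 ± 0.15, and Cldn5, at 12.9, 11.6, 14.1 and 11.4 CPM in KO hearts and 14.6, 12.7, 15.1 and 13.2 CPM in WT hearts, one of -0.15 ± 0.11. Both overlapped between genotypes and did not pass (adjusted p = 0.9997 for each). Thbd itself overlapped in heart, at 99.8, 102, 101 and 105 CPM in KO and 109, 132, 99.3 and 95.9 CPM in WT hearts, with a log2 fold change of -0.10 ± 0.10 (adjusted p = 0.9997).

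For several members the spread within the heart groups followed the heart numbers. Plvap, Selp, Vcam1, Eng, Pecam1 and Nos3 were higher in hearts 1 and 2 than in 3 and 4, as were the atrial and mesothelial genes. Vcam1, for example, was at 90.1, 95.2, 70.7 and 69.2 CPM in KO hearts 1 to 4 and 104, 96.9, 55.7 and 57.4 CPM in WT hearts 1 to 4. Aplnr, Meox2 and Prox1 were higher in hearts 3 and 4. Aplnr was at 33.7, 32.3, 73.4 and 43.1 CPM in KO hearts 1 to 4 and 32.4, 37.4, 65.5 and 59.7 CPM in WT hearts 1 to 4, and Meox2 at 14.1, 12.4, 26.2 and 24.7 CPM and 13.4, 15.5, 27.6 and 23.7 CPM. In both genotypes each of hearts 3 and 4 exceeded each of hearts 1 and 2 for these 2 genes. Within hearts 1 and 2 and within hearts 3 and 4, 0 members were called between KO and WT. The labels do not say how the hearts were cut, and the cause of this order was not tested.

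**Figure D5:**
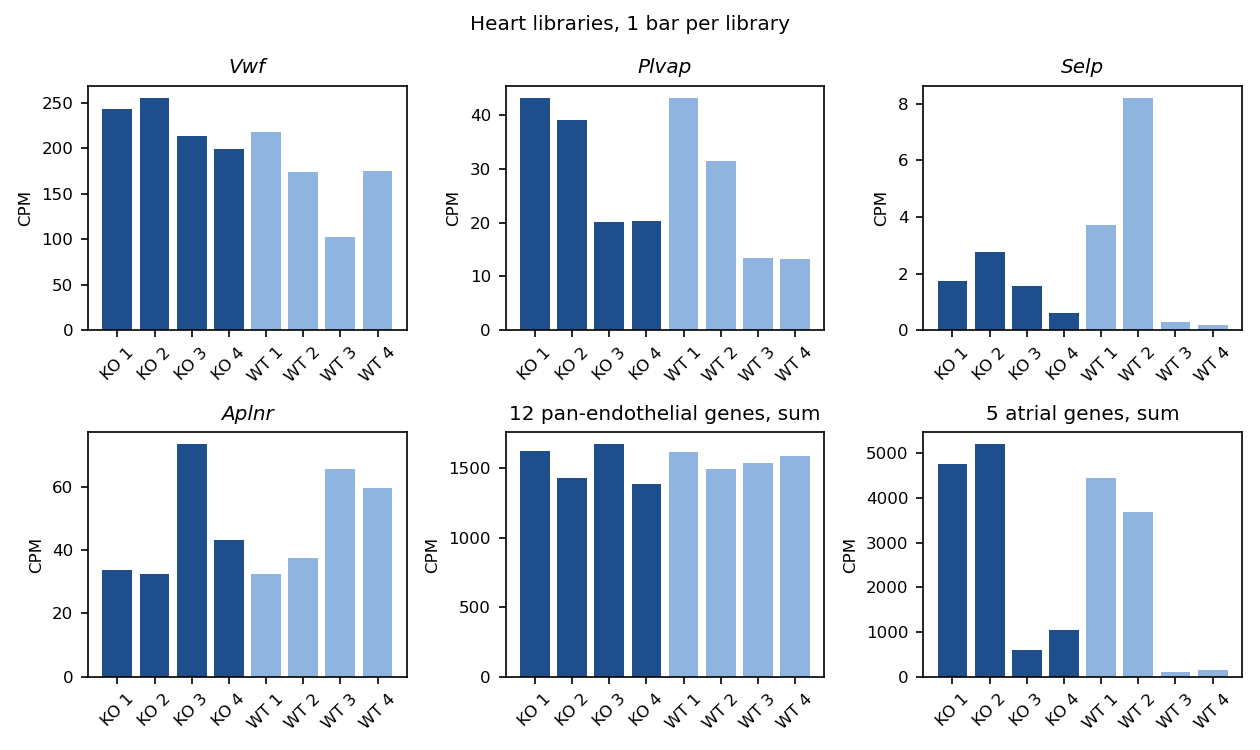
CPM in each heart library, 4 KO bars left of 4 WT bars, for Vwf, Plvap, Selp, Aplnr, the sum of 12 pan-endothelial genes and the sum of 5 atrial genes. Plvap and the atrial sum were high in numbers 1 and 2 of both genotypes, while the pan-endothelial sum stayed between 1391 and 1675 CPM.

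The difference of the KO effect between tissues, gWAT minus heart, was tested in 1 fit of all 14 libraries. Thbd was the 1 member that passed, beside 1.15% of 16014 genes tested (0.362% higher, 0.787% lower). Its KO effect was 1.20 in gWAT and -0.10 in heart, a difference of 1.29 ± 0.26 (adjusted p = 0.0334), and the call was lost in 13 of 20 alternatives (adjusted p 0.0509 to 0.0994), namely with the replicate block and without any 1 library other than heart WT 4 or gWAT WT 1. Podxl had the next smallest p, with a difference of 0.68 ± 0.19 (adjusted p = 0.0948). The median over the 32 members was 0.07, with 21 positive and 11 negative, against 0.00 over all genes. For Nos3, Fli1, Selp and Sox17, whose tissue difference passed in 1 genotype alone, the differences were -0.31 ± 0.31, -0.08 ± 0.21, 0.69 ± 1.0 and -0.0036 ± 0.34, and none passed (adjusted p = 0.692, 0.899, 0.803 and 0.9999). On simulated data of these libraries, 49% of 2-fold differences between tissues were called, which limits what a missed threshold says.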

How the data were processed

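RNA was taken from flash-frozen heart and gWAT with Trizol and sequenced as Kapa mRNA libraries, per the labels' protocols. The authors deposited whole-number counts of reads for each Ensembl ID, not normalized, with 1 column per library and 0 columns without a sample. HISAT2 2.1.0, HTSeq 0.11.0, Trimmomatic 0.32, limma, Picard, FastQC and the build mm10 stand in the submitters' processing notes, with no role. The annotation release and the strandedness of counting are not stated in any source used here, so overlapping genes are uncertain. Of 33459 IDs, 33406 had a symbol and 2812 were at 0 in all libraries.

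For each comparison, low counts were removed (filterByExpr), TMM factors were computed and genes were tested with edgeR 4.0.16 in R 4.3.3 (quasi-likelihood test, adjusted over all tested genes). KO was compared with WT in each tissue, heart with gWAT in each genotype, and the KO effect between tissues in 1 fit of 14 libraries. The SE is the log2 fold change divided by the square root of F. Levels in CPM use 1 TMM scaling over all 14 libraries, while each test uses its own. Exon lengths and coordinates come from GENCODE M21 on GRCm38. The tests were run on simulated data with 200 changed genes, where 77.8% of 2-fold changes and 100% of 4-fold changes were called in gWAT. No 2 libraries of a group were duplicates (lowest chi-square over its degrees of freedom 3.53).

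The members and lists were chosen with earlier results of these data known. All 32 members are described. Full statistics are given for members past the threshold, for the 3 smallest p values per KO comparison and for the 5 highest and 5 lowest tissue differences among members past the threshold, and for up to 4 called genes of each other list, else the 1 with the smallest p. Heart libraries of the same number deviated together between KO and WT (4 correlations of 0.26 to 0.38). Unlike numbers did so too, with 0.48 for KO 2 and WT 1 and 0.17 for KO 1 and WT 2. KO 4 and WT 3 were at 0.34 and KO 3 and WT 4 at 0.28. All pairs of hearts 1 or 2 with hearts 3 or 4 were negative. The correlations thus follow this split of the hearts and do not show that single numbers pair libraries. A block for the number changed no heart call. Alternatives were RLE scaling, library totals, no low-count filter, DESeq2 1.42.0, limma-voom 3.58.1, the block, 1 fit of all libraries, an atrial covariate in heart and each library left out. Fits with heart numbers 1 and 2 alone or 3 and 4 alone were added after the data were seen.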

Additional observations from a re-analysis of the deposited data

Results flagged for a closer look

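The KO effect on Thbd differed between the tissues by 1.29 on the log2 scale, gWAT minus heart, in a test of the difference itself (edgeR interaction term, adjusted p = 0.0334). The call was lost in 13 of 20 alternatives, among them the replicate block (adjusted p 0.0509 to 0.0994 over these). In gWAT the log2 fold change was 1.20, with 3 of 3 KO libraries above every WT library, and in heart it was -0.10, with groups that overlapped. No heart group of 4 held a library far from the others for any member (64 groups examined, 0 found).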

How the results depend on the processing

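The number of members called between KO and WT in gWAT was 1. It was 2 with library totals, with no low-count filter and with 1 fit of all 14 libraries, 4 with DESeq2 and 0 with the replicate block, and leaving out single libraries gave 0 to 4. The gWAT numbers do not pair the libraries (correlations -0.23 to 0.04). The count for the difference between tissues, also 1, was 2 with DESeq2, 0 with the replicate block and 0 to 2 with single libraries left out. In heart the count between KO and WT was 0 under every alternative run. The tissue counts of 29 in KO and 27 in WT mice stayed within 1.5 times under every alternative run, and both were 29 with the replicate block, which brought Fli1 and Robo4 past the threshold in WT mice. Library totals left 18 members higher and 5 lower in KO and 19 higher and 3 lower in WT mice.

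Members that had not passed also changed sign between KO and WT, 0 to 9 of 32 in gWAT and 0 to 12 of 31 in heart over the alternatives, and none of these was called. Among genes given full statistics, the WT tissue difference of Sox17 turned to -0.17 with library totals. Values outside the members that had not passed and changed sign were Myl4 in gWAT, 0.0036 with limma-voom and -0.29 to 0.17 with single libraries left out, and Pf4 in heart, -0.21 to 0.00598 with single libraries left out. With hearts 1 and 2 alone Timp4 turned to 0.051 and Hbb-bs to -0.61, and with hearts 3 and 4 alone Krt19 turned to 1.06, Pdgfra to 0.10 and Actc1 to 0.025. The causes were not tested.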

Other observations

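Genes of other lists taken by the naming rule gave these further values of KO over WT. In gWAT, Fcgr1, Cd68 and Adgre1, genes of macrophages, were lower by log2 fold changes of -1.96 ± 0.28, -2.0 ± 0.38 and -1.52 ± 0.35, and the cell division genes Ccna2, Cdk1, Top2a and Mki67 by -1.78 ± 0.20, -1.81 ± 0.21, -1.62 ± 0.21 and -1.88 ± 0.25. The adipocyte genes Cfd and Retn were higher (2.23 ± 0.31 and 1.32 ± 0.28) and Ryr2, a calcium channel of muscle, was lower (-1.09 ± 0.22). Values that did not pass in gWAT were those of Col1a1 (-1.03), Cspg4 (-0.48), Unc5b (-0.27), Pf4 (-0.30), Myl4 (-0.05), Nr2f2 (0.36), Edn1 (0.74), Alas2 (0.89) and Cd79a (1.96).

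None of the heart values passed. They were those of Angpt1 (0.54), Bmx (0.52), Nr2f2 (0.25), S1pr1 (-0.24), Timp4 (-0.25), Reln (-0.32), Mcam (-0.19), Adgre1 (-0.26), Krt19 (-0.62), Pf4 (-0.13), Pdgfra (-0.14), Plin1 (-0.78), Actc1 (-0.13), Bmp10 (2.03), Hbb-bs (0.59) and Top2a (-0.63). The 4 members on chromosome 1, which also carries Fhl2, lie 38.7 Mb (Sox17), 120.9 Mb (Selp), 130.1 Mb (Ackr1) and 146.9 Mb (Prox1) from it.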
